A study of Mus musculus with 24 samples.

Results

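Autophagy genes were followed through the striatum and cerebellum of mice that carry an expanded CAG repeat in the endogenous huntingtin gene. The set holds 36 named genes, from the kinases that start an autophagosome to the lysosomal membrane and the regulators upstream. Each gene was represented by 1 probe set, namely the brightest on average of those that carry its symbol alone and average at least 4 on the log2 scale in striatum or cerebellum. Of the 36 genes, 35 had such a probe set, out of 10766 genes that passed the same filter. The cargo receptor Optn was not analysed here, because no probe set carries its symbol alone in the annotation used. In all 35, every group mean was above the filter, the lowest at 5.14.

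The 24 Affymetrix MG430 2.0 arrays fall into 4 groups of 6, from 2 genotypes and 2 tissues. Wild-type mice were Hdh+/Hdh+, labelled Q7/Q7, and the knock-in mice were HdhQ111/HdhQ111, homozygous for the expanded allele, here called Q111. All groups share an age given only as 3 to 10 weeks. The allele replaces the mouse gene's own repeat in every cell, so both tissues carry it. Sex, strain background, and whether striatum and cerebellum came from the same mice are not given in the sources used here. The labels call the replicates biological without naming the animals, so the p-values below measure the spread between these samples. The allele itself was not checked here.

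Macroautophagy wraps cytoplasm and damaged organelles in a double membrane and delivers them to lysosomes. The ULK kinase complex starts the process, a class III phosphatidylinositol 3-kinase marks the membrane with PI3P, and 2 ubiquitin-like conjugation steps attach ATG8 proteins to the growing membrane, where they bind cargo receptors. mTORC1 holds the ULK complex in check when nutrients are plentiful, and the transcription factor TFEB drives lysosomal and autophagy genes. Neurons rely on the pathway to clear protein aggregates, and mutant huntingtin is among its known substrates.

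Promoters of the set were read for the E-box CACGTG, the palindromic core of the element that TFEB binds, which reads the same on both strands. RefSeq promoter windows of 300 bases, 250 before to 50 after the transcription start in GRCm38.p6, were found for 30 of the 36 genes, with 34 windows in all. The motif was present in 5 genes, namely Lamp1, Atg3, Atg5, Atg7 and Atg14, and 7.15% of all 32851 windows hold it. The longer TCACGTGA, which contains CACGTG, was present in Atg3 among these genes and in 0.974% of all windows. The 250 bases before the start are shown for the members with the most copies, Lamp1 and Atg3, and for Gabarapl1, whose expression differed most between the tissues and whose window holds no copy. Capitals mark CACGTG. The windows are chr8:13158911-13159160 for Lamp1, chr16:45158579-45158828 for Atg3 and chr6:129532942-129533191 for Gabarapl1, all on the plus strand.
Lamp1: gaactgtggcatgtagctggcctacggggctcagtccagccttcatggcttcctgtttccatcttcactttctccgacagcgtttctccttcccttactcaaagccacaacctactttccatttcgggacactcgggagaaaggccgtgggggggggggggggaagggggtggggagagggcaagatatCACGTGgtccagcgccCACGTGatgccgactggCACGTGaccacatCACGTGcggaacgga
Atg3: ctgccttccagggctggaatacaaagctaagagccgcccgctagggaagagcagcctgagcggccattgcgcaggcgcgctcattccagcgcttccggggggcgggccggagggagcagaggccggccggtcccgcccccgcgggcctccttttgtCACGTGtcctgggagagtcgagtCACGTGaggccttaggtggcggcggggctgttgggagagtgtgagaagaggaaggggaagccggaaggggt
Gabarapl1: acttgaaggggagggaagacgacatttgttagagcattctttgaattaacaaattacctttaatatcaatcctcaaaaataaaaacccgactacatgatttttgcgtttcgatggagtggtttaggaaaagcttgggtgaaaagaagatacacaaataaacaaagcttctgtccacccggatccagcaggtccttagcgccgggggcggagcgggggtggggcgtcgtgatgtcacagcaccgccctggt

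The Lamp1 promoter held 4 copies, beginning 61, 45, 28 and 15 bases before the start, and 8 of the 32851 windows hold 4 or more. The Atg3 promoter held 2 copies, 94 and 71 bases before the start, and 195 windows hold 2 or more. Of the 5 genes with the motif, Lamp1, Atg3, Atg5 and Atg7 were called lower in wild-type striatum than in wild-type cerebellum, as were 41.2% of all probe sets, and Atg14 was 0.26 (SE 0.13) with an adjusted p of 0.0885 in limma's test. Across all genes with a promoter window, 40.8% of the 1044 with CACGTG and 41.7% of the 7709 without were called lower in wild-type striatum. The shares with and without the motif were close.

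Between the tissues the autophagy genes split into members that were higher and members that were lower in striatum, with no common direction. In wild type 25 of 35 differed between striatum and cerebellum at an adjusted p under 0.05 in limma, 9 higher and 16 lower in striatum. Of the 20738 probe sets tested 71.8% were called, 30.6% higher and 41.2% lower. In Q111 24 of 35 differed, 12 higher and 12 lower, where 71.4% of probe sets were called, 31.3% higher and 40.1% lower. The members' share is close to that background in both genotypes. The median striatum minus cerebellum difference was -0.13 in wild type and -0.07 in Q111, against -0.08 and -0.07 over all 10766 genes. With the arrays rescaled by quantile normalisation the wild-type split became 13 higher and 14 lower, and with median centring 12 higher and 14 lower.

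The differences were small beside those of other genes. The median size of the tissue difference was 0.280 on the log2 scale in wild type and 0.334 in Q111, where all genes had 0.466 and 0.464. A difference of 1.5-fold or more was measured for 8 members in wild type and 10 in Q111, while 42.2% and 41.9% of all genes reached it. The tissue differences of wild type and of Q111 come from separate arrays, and over the 35 members, which share those arrays, they correlated at r = 0.95. The sign was the same in both genotypes for 32 members. The tissues did not overlap for 18 members in wild type and 15 in Q111, against 52.2% and 51.2% of probe sets. The call and sign were shared by 19, while 6 members were called in wild type only, 5 in Q111 only and 5 in neither. Over all probe sets 71.8% were called in wild type and 71.4% in Q111. The correlation, shared signs and shared calls were not computed over all genes, so they cannot be read as particular to this set.

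**Figure D1:**
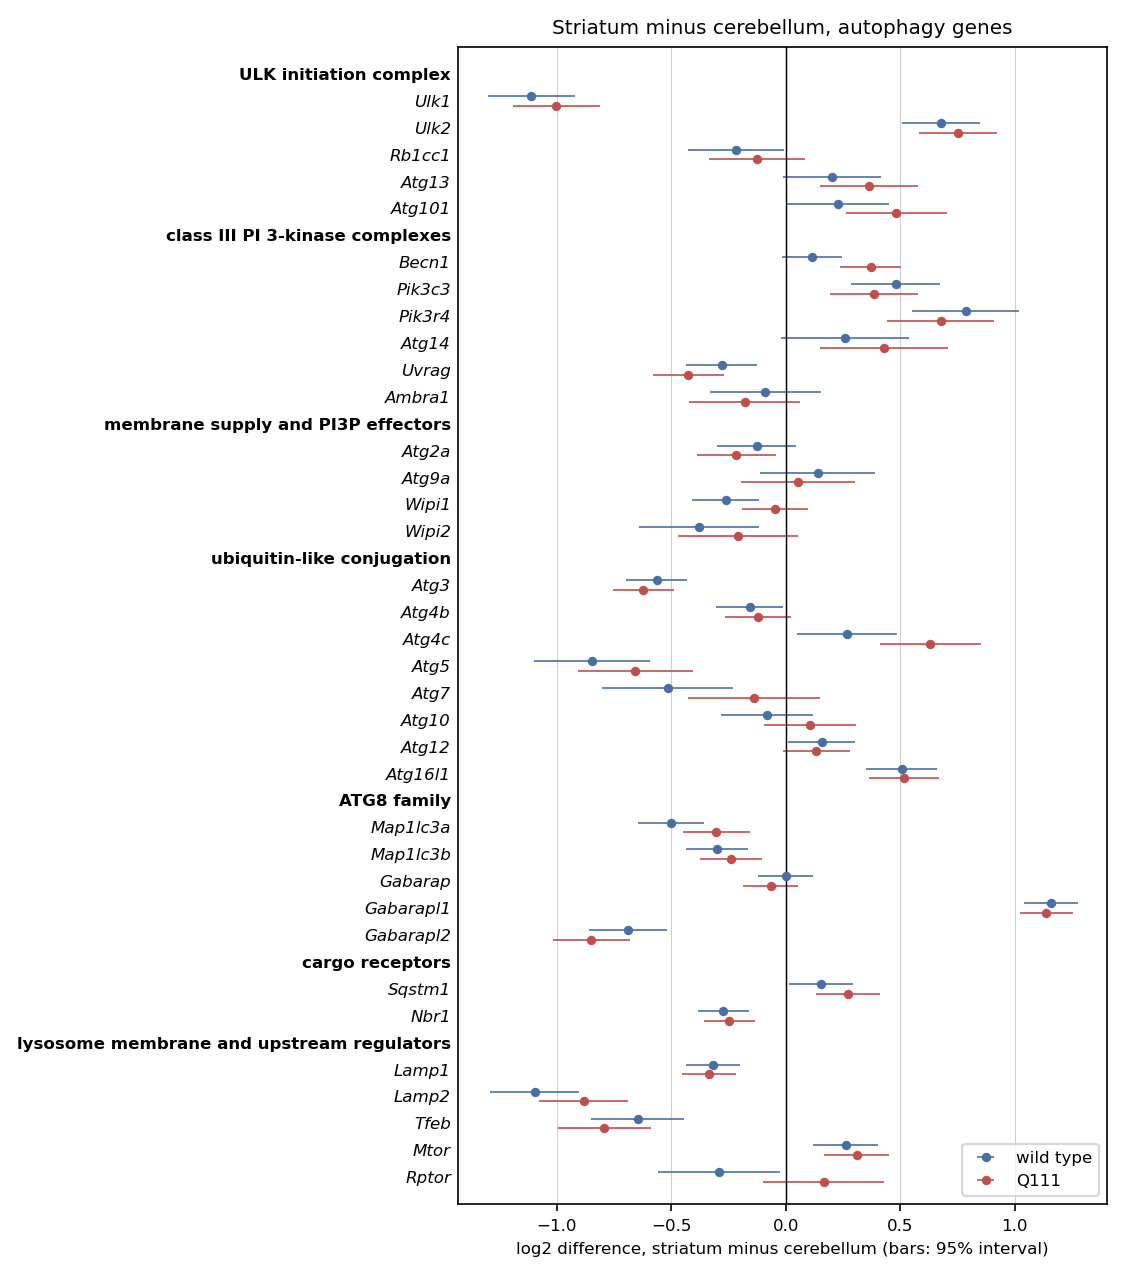
Striatum minus cerebellum log2 difference (horizontal axis) for each of the 35 autophagy genes (vertical axis), grouped by role, in wild type (blue) and Q111 (red). Points are limma estimates from 6 arrays per group and bars their 95% intervals. Gabarapl1 lies farthest right at 1.16 and 1.14, and Ulk1 and Lamp2 farthest left.

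The labelled tissues matched the markers of their own neurons. All 6 measured striatal projection neuron markers were higher in wild-type striatum and all 8 cerebellar granule and Purkinje markers were higher in cerebellum. Glial markers differed as well. All 7 measured microglial markers were higher in wild-type striatum, with a summed level of 11.3 to 11.7 on the log2 scale against 9.62 to 9.89, and so were all 7 oligodendrocyte markers, at 15.9 to 16.0 against 15.2 to 15.4. Of 6 astrocyte markers 4 were lower and 1 higher in striatum. The part of cell composition in the tissue differences below was not tested, and in whole tissue fewer cells of a type and less RNA per cell cannot be told apart.

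The ULK complex, which starts autophagosome formation, showed opposite tissue patterns for its 2 related kinases, Ulk1 and Ulk2. Ulk1 in wild type ranged from 7.74 to 8.17 across the striatum arrays (median 7.87) and from 8.71 to 9.17 across the cerebellum arrays (median 9.04). In Q111 it ranged from 7.65 to 8.19 (median 7.92) in striatum and from 8.73 to 9.03 (median 8.96) in cerebellum. Every striatum array lay below every cerebellum array in both genotypes. The difference was -1.11 (SE 0.09, adjusted p = 1.19e-10, limma) in wild type and lay between -1.19 and -0.81 (95% interval, adjusted p = 8.11e-10, limma) in Q111, so striatum had 0.463 and 0.499 times the cerebellar level.

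Ulk2 ran the other way. In wild type it spanned 8.87 to 9.22 in striatum (median 9.05) against 8.30 to 8.51 in cerebellum (median 8.35), and in Q111 8.75 to 9.19 (median 8.93) against 8.05 to 8.45 (median 8.18). The tissue groups did not overlap, and the difference was 0.68 in wild type and 0.75 in Q111 (SE 0.08 in each; adjusted p = 9.22e-08 and 1.64e-08, limma). The adaptor subunits Atg13 and Atg101 were called in Q111, at 0.36 and 0.48. In wild type they measured 0.20 (adjusted p = 0.0824) and 0.23 (adjusted p = 0.0609). The other kept probe set of Atg13 was called in neither genotype, at -0.06 in wild type (adjusted p = 0.466, limma) and 0.005 in Q111 (adjusted p = 0.949, limma). The scaffold Rb1cc1 passed in neither genotype, at -0.22 in wild type and -0.12 in Q111. Its second probe set was called at -0.99 in wild type (adjusted p = 0.000307, limma) and measured -0.14 in Q111 (adjusted p = 0.581, limma).

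In the class III PI 3-kinase complexes, the catalytic subunit and its regulatory partner were both higher in striatum. Pik3r4, the regulatory subunit, spanned 7.80 to 8.50 in wild-type striatum (median 8.02) against 6.90 to 7.44 in wild-type cerebellum (median 7.36). In Q111 it spanned 7.81 to 8.35 (median 7.99) against 7.06 to 7.53 (median 7.39). No striatum array reached down to a cerebellum array in either genotype, and the difference was 0.79 in wild type and 0.68 in Q111 (SE 0.11 in each; adjusted p = 1.23e-06 and 1.03e-05, limma). Pik3c3, the lipid kinase itself, was higher by 0.48 and 0.39, again with groups apart.

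The subunits that direct the kinase to different membranes differed in direction. Uvrag, found in the complex that acts on endosomes and late autophagosomes, was lower in striatum, at -0.28 in wild type and -0.43 in Q111. Atg14, which targets the kinase to autophagosome formation, measured 0.26 in wild type (adjusted p = 0.0885) and was called at 0.43 in Q111. Ambra1, a scaffold that links the ULK and beclin complexes, measured -0.09 and -0.18 and passed in neither. Becn1, the beclin core, is described with its probe sets below.

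Among the genes that supply membrane or read PI3P, the differences on the brightest probe sets were small. Wipi1 and Wipi2, which bind PI3P, were called lower in wild-type striatum at -0.26 and -0.38, but the mean over all their probe sets changed sign for both, so the direction depends on the probe sets used. The lipid-transfer protein gene Atg2a was called in Q111 at -0.22 and measured -0.13 in wild type. Atg9a, a membrane protein of the vesicles that seed autophagosomes, measured 0.14 and 0.05 and passed in neither genotype.

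Of the ubiquitin-like conjugation genes 7 of 8 were called in wild type and 4 of 8 in Q111, where 71.8% and 71.4% of all probe sets were; no member passed the test of a change between genotypes. Atg5, the protein to which ATG12 is joined, spanned 6.98 to 7.61 in wild-type striatum (median 7.31) against 7.89 to 8.28 in wild-type cerebellum (median 8.12). In Q111 it spanned 6.94 to 7.57 (median 7.22) against 7.59 to 8.29 (median 7.89). The tissues were apart in both genotypes, narrowly so in Q111, and the difference was -0.85 and -0.66 (SE 0.12 in each; adjusted p = 1.25e-06 and 3.99e-05, limma). Another probe set of Atg5 measured 0.03 in wild type (adjusted p = 0.769).

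Atg16l1, which brings the ATG12 and ATG5 conjugate to the membrane, was higher in striatum. It spanned 7.74 to 8.02 in wild-type striatum (median 7.94) against 7.32 to 7.46 in wild-type cerebellum (median 7.40), and in Q111 7.68 to 8.02 (median 7.74) against 7.05 to 7.47 (median 7.30). No arrays of the tissues overlapped, and the difference was 0.51 in wild type and 0.52 in Q111 (SE 0.08 in each; adjusted p = 1.83e-06 and 1.41e-06, limma). Its partner Atg12 measured 0.16 in wild type, at the threshold with an adjusted p of 0.0494. In Q111 it measured 0.13 (adjusted p = 0.0953, limma). Another kept probe set of Atg12, which is less bright, was called in both genotypes. It measured 0.53 in wild type (adjusted p = 0.000627, limma) and 0.37 in Q111 (adjusted p = 0.011, limma). The least bright one was called in neither. Its difference was 0.008 in wild type (adjusted p = 0.889, limma) and 0.09 in Q111 (adjusted p = 0.118, limma).

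Of the 5 enzymes and proteases of the pathway 3 were called lower in wild-type striatum and 1 higher. Over all probe sets 41.2% were called lower and 30.6% higher, and so small a count cannot be told from those shares. Atg3, which transfers ATG8 proteins to lipid, was lower, at -0.56 and -0.62 with groups apart in both genotypes. Atg7, the activating enzyme, was lower, at -0.52 in wild type, where the groups did not overlap, and measured -0.14 in Q111 (adjusted p = 0.378). Of the proteases that trim ATG8 proteins, Atg4b was called at -0.16 in wild type with an adjusted p of 0.0475, and Atg4c was higher by 0.27 in wild type and 0.63 in Q111. Atg10, the transfer enzyme for ATG12, measured -0.08 and 0.11 and passed in neither.

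The ATG8 family, the lipid-anchored proteins of the autophagosome membrane, held the largest positive tissue difference of the set and 3 members that were lower in striatum. Gabarapl1 was higher in striatum while Gabarapl2, Map1lc3a and Map1lc3b were lower, and Gabarap was not called. Gabarapl1 spanned 12.56 to 12.76 in wild-type striatum (median 12.60) and 11.34 to 11.57 in wild-type cerebellum (median 11.47). In Q111 it spanned 12.50 to 12.69 (median 12.55) and 11.31 to 11.52 (median 11.47).

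The lowest striatum array of Gabarapl1 lay far above the highest cerebellum array in both genotypes. The difference was 1.16 (SE 0.06, adjusted p = 4.01e-15, limma) in wild type and 1.14 (SE 0.06, adjusted p = 5.9e-15, limma) in Q111, or 2.23 and 2.20 times the cerebellar level. Gabarapl2 spanned 10.55 to 11.08 in wild-type striatum (median 10.88) against 11.45 to 11.77 (median 11.54) in cerebellum, and in Q111 10.55 to 10.96 (median 10.76) against 11.51 to 11.68 (median 11.56). Its groups did not overlap either. The striatum minus cerebellum difference was -0.69 in wild type and -0.85 in Q111 (SE 0.08 in each, adjusted p = 6.18e-08 and 1.82e-09, limma). The other kept probe set of Gabarapl2, which is less bright, was called in neither genotype. It measured -0.10 in wild type (adjusted p = 0.223, limma) and -0.11 in Q111 (adjusted p = 0.18, limma). The size of the Gabarapl2 difference thus depends on the probe set.

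Map1lc3a, one of the LC3 genes whose protein is the usual marker of autophagosomes, spanned 11.92 to 12.20 in wild-type striatum (median 12.09) against 12.45 to 12.76 in cerebellum (median 12.54). In Q111 the ranges were 12.05 to 12.29 (median 12.14) and 12.26 to 12.63 (median 12.45). The tissues were apart in wild type and overlapped in Q111, with differences of -0.50 and -0.30 (SE 0.07 in each; adjusted p = 8.53e-07 and 0.00049, limma). The Q111 difference was nearer 0, and the test of that change, the interaction, gave 0.20 (SE 0.10, adjusted p = 0.511).

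Map1lc3b spanned 11.81 to 12.08 in wild-type striatum (median 11.94) and 12.13 to 12.39 in cerebellum (median 12.27), and in Q111 11.77 to 12.16 (median 11.96) and 12.07 to 12.27 (median 12.21). The difference was -0.30 and -0.24 (SE 0.07 in each; adjusted p = 0.000287 and 0.00246, limma), but the call was lost in both genotypes in the mean of its 3 kept probe sets. Of the other two, 1415929_at measured -0.12 in wild type (adjusted p = 0.0629) and was called at -0.16 in Q111 (adjusted p = 0.0137), and 1415930_a_at had the opposite sign, at 0.07 (adjusted p = 0.396) and 0.08 (adjusted p = 0.338). Gabarap spanned 11.38 to 11.49 in wild-type striatum (median 11.44) and 11.34 to 11.59 in cerebellum (median 11.44), with 11.21 to 11.51 (median 11.40) and 11.34 to 11.53 (median 11.48) in Q111. Its 4 groups overlapped throughout, and the intervals of the tissue difference ran from -0.12 to 0.12 in wild type and from -0.19 to 0.05 in Q111.

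**Figure D2:**
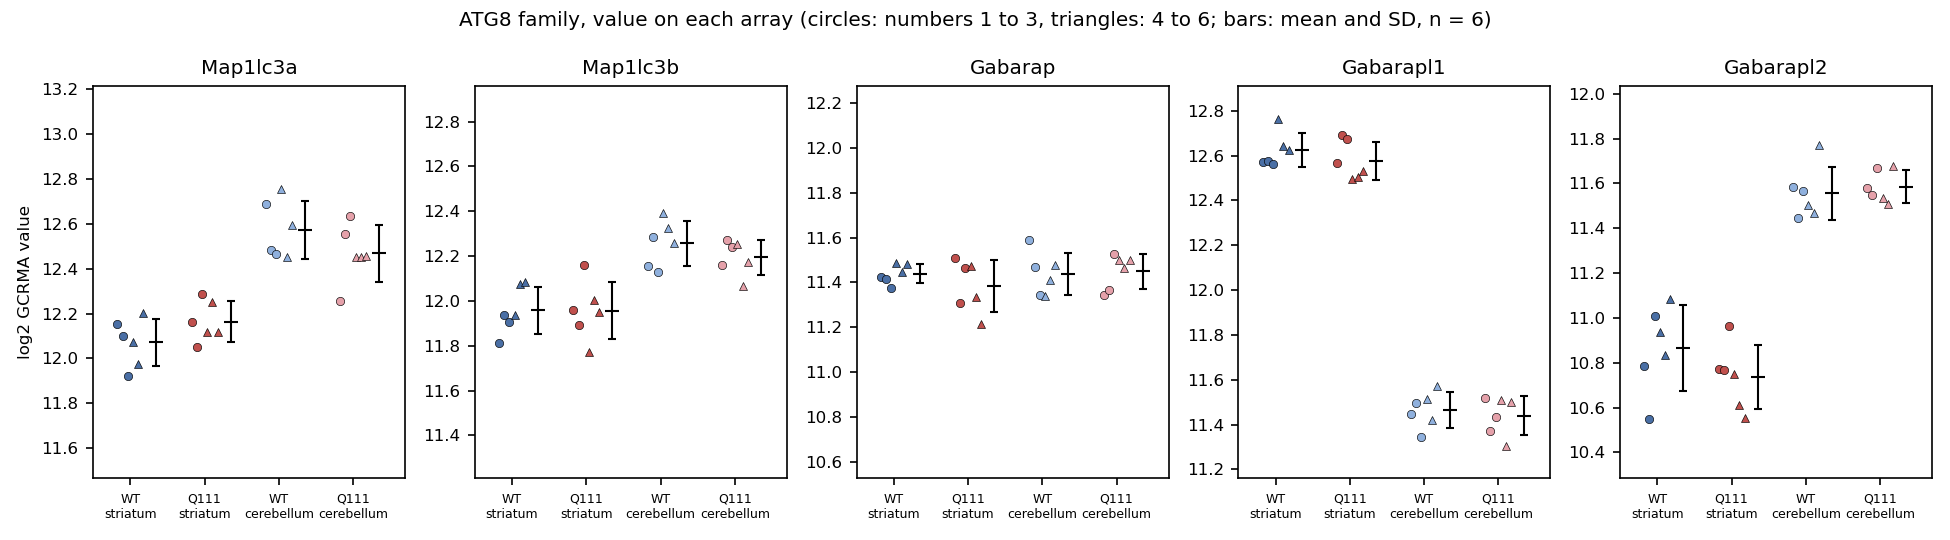
Log2 GCRMA value on each array (vertical axis; every panel spans the same width of scale) for the 5 ATG8 genes in the 4 groups of 6 arrays. Circles are replicate numbers 1 to 3, triangles 4 to 6, and bars the group mean and SD; wild type and Q111 overlap within each tissue for every gene, while Gabarapl1 is higher and Gabarapl2 lower in striatum.

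Both measured cargo receptors differed between the tissues on their brightest probe sets, in opposite directions. Sqstm1, which encodes p62 and is itself degraded by autophagy, was higher in striatum by 0.15 in wild type (adjusted p = 0.0468) and 0.27 in Q111. Nbr1 was lower, at -0.27 and -0.25 with groups apart in both genotypes. The other kept probe set of Nbr1, which is less bright, was called in neither. It measured -0.16 in wild type (adjusted p = 0.165, limma) and -0.07 in Q111 (adjusted p = 0.55, limma).

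The lysosomal membrane genes and Tfeb were lower in striatum. Lamp1 was lower, at -0.32 and -0.33, and Tfeb, at -0.65 and -0.79, with no overlap of the tissues in either genotype. Lamp2 spanned 9.25 to 9.65 in wild-type striatum (median 9.33) against 10.19 to 10.63 in cerebellum (median 10.52), and in Q111 9.33 to 9.68 (median 9.45) against 10.16 to 10.71 (median 10.30). The tissues stood apart, with differences of -1.10 and -0.88 (SE 0.09 in each; adjusted p = 2.09e-10 and 1.02e-08, limma). Mtor, the kinase of mTORC1, was higher by 0.26 and 0.31, and its partner Rptor measured -0.29 in wild type (adjusted p = 0.0451) and 0.17 in Q111 (adjusted p = 0.255).

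For Lamp2 and Becn1 the probe sets of one gene did not tell the same story. Lamp2 is known to be spliced into isoforms with different membrane ends, and its 4 probe sets formed 2 pairs. The chosen probe set 1434503_s_at and 1428094_at gave -1.10 and -1.08 between wild-type tissues, with no overlap of arrays, whereas 1416344_at gave 0.39 (SE 0.14, adjusted p = 0.014, limma) and 1416343_a_at gave 0.29 (SE 0.13, adjusted p = 0.0545). On 1416344_at wild-type striatum spanned 8.26 to 8.81 (median 8.61) and wild-type cerebellum 7.95 to 8.46 (median 8.16), and these ranges overlap. Which transcripts each probe set reads was not analysed here. Of the 17 members with several probe sets, 7 had tissue differences of both signs in wild type (Atg13, Atg4c, Atg5, Lamp2, Map1lc3b, Wipi1 and Wipi2).

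Becn1 encodes beclin 1, the core of the PI 3-kinase complexes. Its brightest probe set, 1455880_s_at, spanned 10.36 to 10.63 in wild-type striatum (median 10.41) and 10.52 to 10.68 in Q111 striatum (median 10.62). The groups overlapped through the third wild-type array alone, and the genotype difference of 0.16 (SE 0.06) had an adjusted p of 0.161 in limma and an exact two-sided permutation p of 0.013. Its second probe set, 1460320_at, named here after its values were seen, went the other way. It spanned 8.80 to 9.00 in wild-type striatum (median 8.88) and 8.55 to 8.67 in Q111 striatum (median 8.61).

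On that second probe set all 6 Q111 arrays lay below all 6 wild-type arrays. The difference was -0.28 (SE 0.07), with an adjusted p of 0.0368 in limma and an exact two-sided permutation p of 0.00216, the smallest that 6 against 6 arrays can give. It was -0.22 in replicate numbers 1 to 3 and -0.35 in numbers 4 to 6. It was the 1 call among the members' 60 kept probe sets in the striatum genotype comparison, where 2.87% of all probe sets were called. The call was kept in 3 of 12 fits that left out 1 striatum array, those without wild-type replicate 1, wild-type replicate 2 or Q111 replicate 3, and the adjusted p ran from 0.0366 to 0.0869. The third probe set, 1435219_x_at, measured 0.02 (SE 0.12), and in cerebellum 1460320_at measured 0.09 (SE 0.07, adjusted p = 0.632). A direction for Becn1 in Q111 striatum thus depends on the probe set.

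Between tissues the Becn1 probe sets had 1 direction, with higher means in striatum. The brightest, 1455880_s_at, measured 0.12 in wild type (adjusted p = 0.11, limma) and was called at 0.37 in Q111 (adjusted p = 1.65e-05, limma). The second, 1460320_at, was called in both, at 0.67 in wild type (adjusted p = 1.34e-08, limma) and 0.30 in Q111 (adjusted p = 0.000729, limma). The third, 1435219_x_at, measured 0.15 and 0.18 and was called in neither. The test of the change between genotypes was not passed by 1455880_s_at (adjusted p = 0.296) or by 1460320_at (adjusted p = 0.142).

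**Figure D3:**
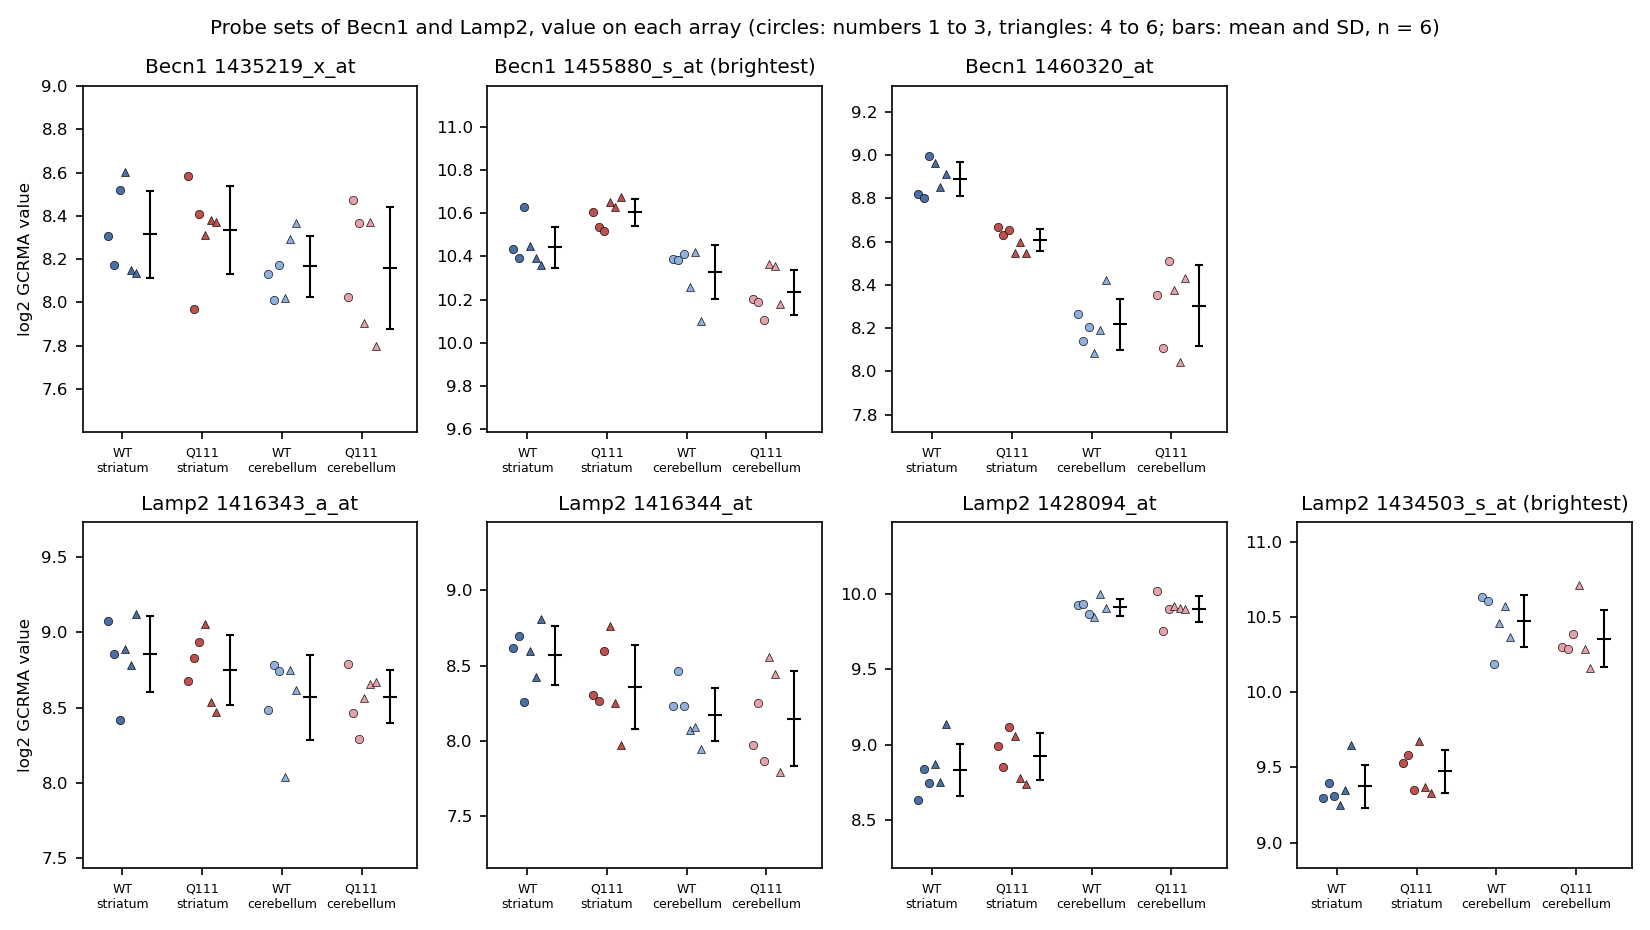
Log2 GCRMA value on each array (vertical axis) for the 3 kept probe sets of Becn1 (top) and the 4 of Lamp2 (bottom) in the 4 groups of 6 arrays; circles are replicate numbers 1 to 3, triangles 4 to 6, bars the mean and SD. For Becn1, Q111 striatum is below wild type on 1460320_at alone; for Lamp2, striatum lies below cerebellum on 1428094_at and 1434503_s_at and not on the other 2.

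Between genotypes no member was called in either tissue. In striatum 0 of 35 passed an adjusted p of 0.05 in limma, 3 had an unadjusted p under 0.05 (Becn1, Atg7 and Lamp1), and the smallest adjusted p was 0.161. The background there is 2.87% called and 19% at the unadjusted threshold. In cerebellum 0 of 35 passed, 1 had an unadjusted p under 0.05 (Atg101), and the smallest adjusted p was 0.296, where 0.458% of probe sets were called and 13.8% had such an unadjusted p. No member had genotype groups that did not overlap, which 2.39% of probe sets showed in striatum and 1.12% in cerebellum.

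The intervals bound what was missed on the brightest probe set of each gene. Taken one gene at a time, the 95% intervals of the Q111 minus wild-type difference ran from no lower than -0.40 to no higher than 0.58 in striatum, and from -0.48 to 0.30 in cerebellum. All 35 lay within a change of 1.5-fold either way in each tissue. Other kept probe sets could reach further. Rb1cc1 1449292_at measured -0.63 in cerebellum, with an interval of -1.08 to -0.18 (adjusted p = 0.199, limma). Wipi1 1438709_at, near the filter at means of 4.69 and 4.26, measured -0.42 in striatum (interval -0.70 to -0.15, adjusted p = 0.0785, limma). In the same comparisons the brightest probe sets of Rb1cc1 and Wipi1 measured -0.10 and 0.10. The group SD of a member was 0.0423 to 0.316 with a median of 0.138. A change that lies within a gene's interval is not excluded.

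**Figure D4:**
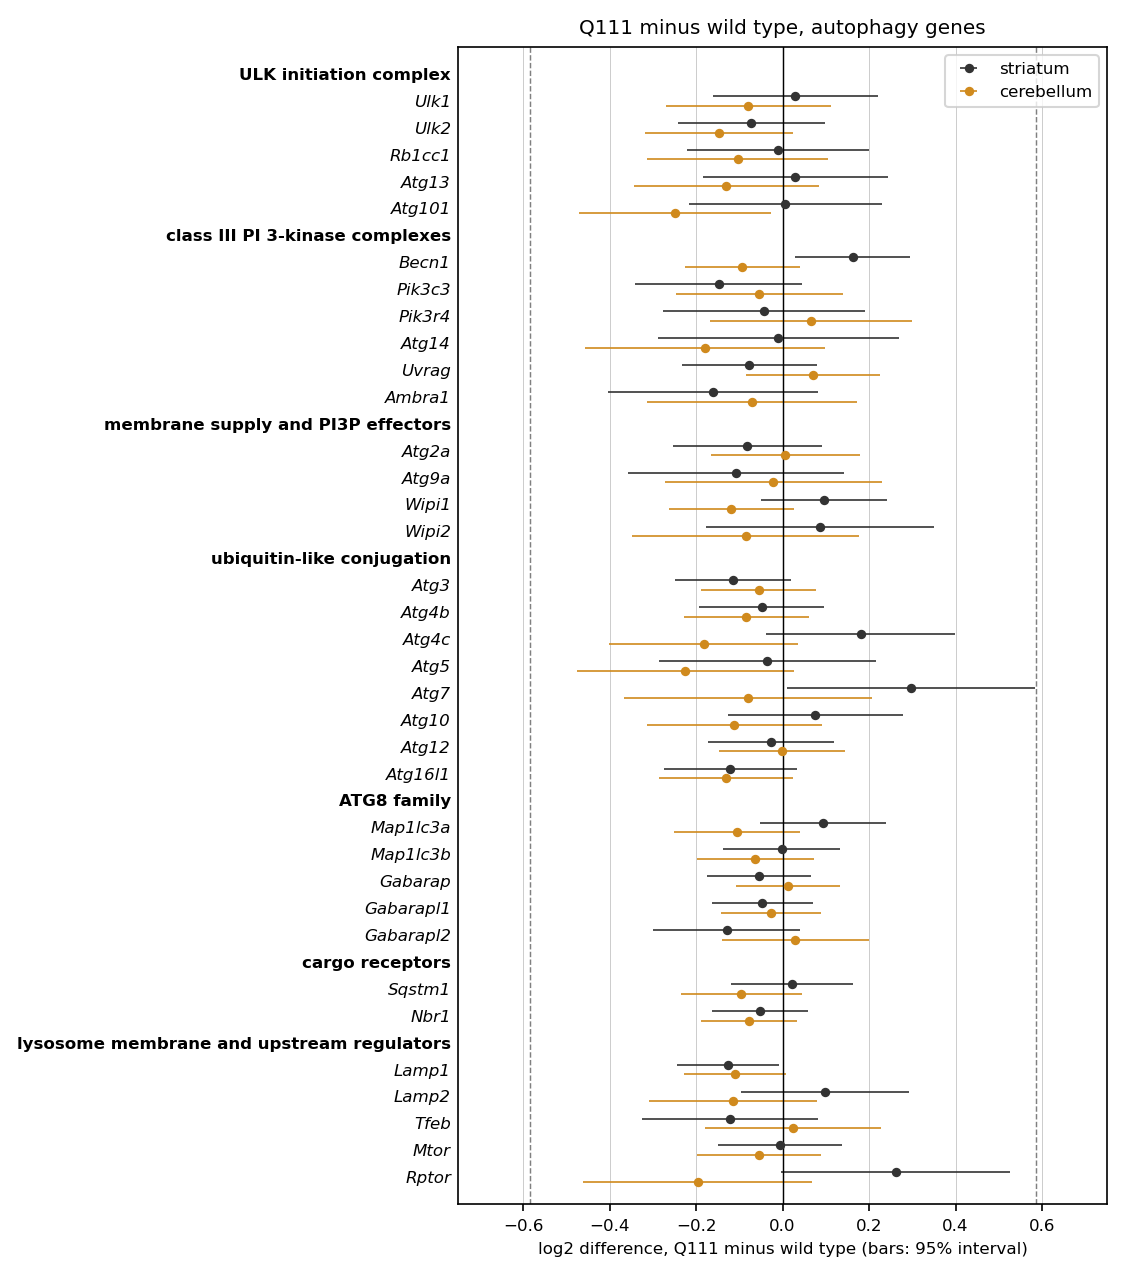
Q111 minus wild-type log2 difference (horizontal axis) for the brightest probe set of each of the 35 autophagy genes (vertical axis), grouped by role, in striatum (black) and cerebellum (orange). Points are limma estimates from 6 arrays per group, bars their 95% intervals, and dashed lines mark 1.5-fold; all intervals lie between the dashed lines.

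On the brightest probe sets, the largest genotype differences in striatum were those of Atg7, Rptor and Atg4c. Atg7, the activating enzyme of both conjugation steps, spanned 5.69 to 6.48 in wild type (median 6.34) and 6.19 to 6.71 in Q111 (median 6.59). The groups overlapped, and the difference of 0.30 (SE 0.14) had an adjusted p of 0.245 in limma and an exact permutation p of 0.0606. Rptor, the subunit of mTORC1 that recruits substrates, spanned 7.04 to 7.55 in wild type (median 7.41) and 7.27 to 7.82 in Q111 (median 7.70), a difference of 0.26 (SE 0.13, adjusted p = 0.272, limma; exact permutation p = 0.0455). Atg4c spanned 7.32 to 7.86 (median 7.63) and 7.42 to 8.10 (median 7.81), a difference of 0.18 (SE 0.11, adjusted p = 0.373, limma; exact permutation p = 0.186). All 3 had a higher mean in Q111 in both number sets, and all overlapped with wild type. They were picked for their size over these same arrays, so the number sets give no separate check.

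In cerebellum the largest on the brightest probe sets were Atg101, Atg5 and Rptor, all with lower means in Q111. Atg101, a ULK complex adaptor, spanned 6.06 to 6.68 in wild type (median 6.39) and 5.96 to 6.40 in Q111 (median 6.08), a difference of -0.25 (SE 0.11, adjusted p = 0.296, limma; exact permutation p = 0.0671). Atg5 spanned 7.89 to 8.28 (median 8.12) and 7.59 to 8.29 (median 7.89), a difference of -0.22 (SE 0.12, adjusted p = 0.418, limma; exact permutation p = 0.0823). Rptor spanned 7.25 to 7.87 (median 7.75) and 7.12 to 7.83 (median 7.56), a difference of -0.20 (SE 0.13, adjusted p = 0.516, limma; exact permutation p = 0.208). In each, Q111 arrays reached into the wild-type range.

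Rptor therefore had its larger estimates in opposite directions in the 2 tissues. Its interaction was the largest of the set on the brightest probe sets. The striatum difference minus the cerebellum difference was 0.46 (SE 0.18), with an adjusted p of 0.378 in limma. Over all members 0 of 35 passed the interaction test and 4 had an unadjusted p under 0.05 (Becn1, Rptor, Atg4c and Wipi1), where 0.0868% of probe sets were called and 10.1% had such an unadjusted p. The interaction is the same quantity as the Q111 minus wild-type change in the tissue difference. So no member called between tissues in one genotype only was shown to differ between genotypes.

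The counts of higher and lower means moved with the scaling. In cerebellum 29 of 35 members had a lower mean in Q111, with a median of -0.08, but 66.1% of all genes were lower there too, with a median of -0.05. After median centring of the arrays the split was 21 higher and 14 lower, and after quantile normalisation 11 higher and 24 lower. In striatum 13 members were higher and 22 lower, with the members' median and that of all genes both at -0.03, and both rescalings turned the majority around, to 20 higher and 15 lower with quantile normalisation and 22 higher and 13 lower with centring.

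The replicate numbers split each group into arrays numbered 1 to 3 and 4 to 6, and the sets did not behave as independent. Over all probe sets the mean of the first set minus that of the second had an SD of 0.242 in wild-type striatum and 0.229 in Q111 striatum, but of 0.0534 with both genotypes averaged, so the shifts were nearly opposite in the 2 genotypes. In cerebellum the SDs were 0.166, 0.159 and 0.0512. No source used here records a step that brings this about, and its part in the genotype differences was not tested. Between the arrays numbered 1 to 3 and those numbered 4 to 6, which share no array, the sign of the striatum genotype difference was the same for 17 of 35 members, and for 50.5% of all genes. In cerebellum it was the same for 19 of 35, and for 57.3% of all genes. The wild-type tissue difference kept its sign in 34 of 35 members and the Q111 tissue difference in 32, against 91.7% and 91.2% of all genes. In striatum the Q111 minus wild-type difference of Atg5 was 0.32 in the first set and -0.39 in the second, and that of Rb1cc1 was 0.30 and -0.32.

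**Figure D5:**
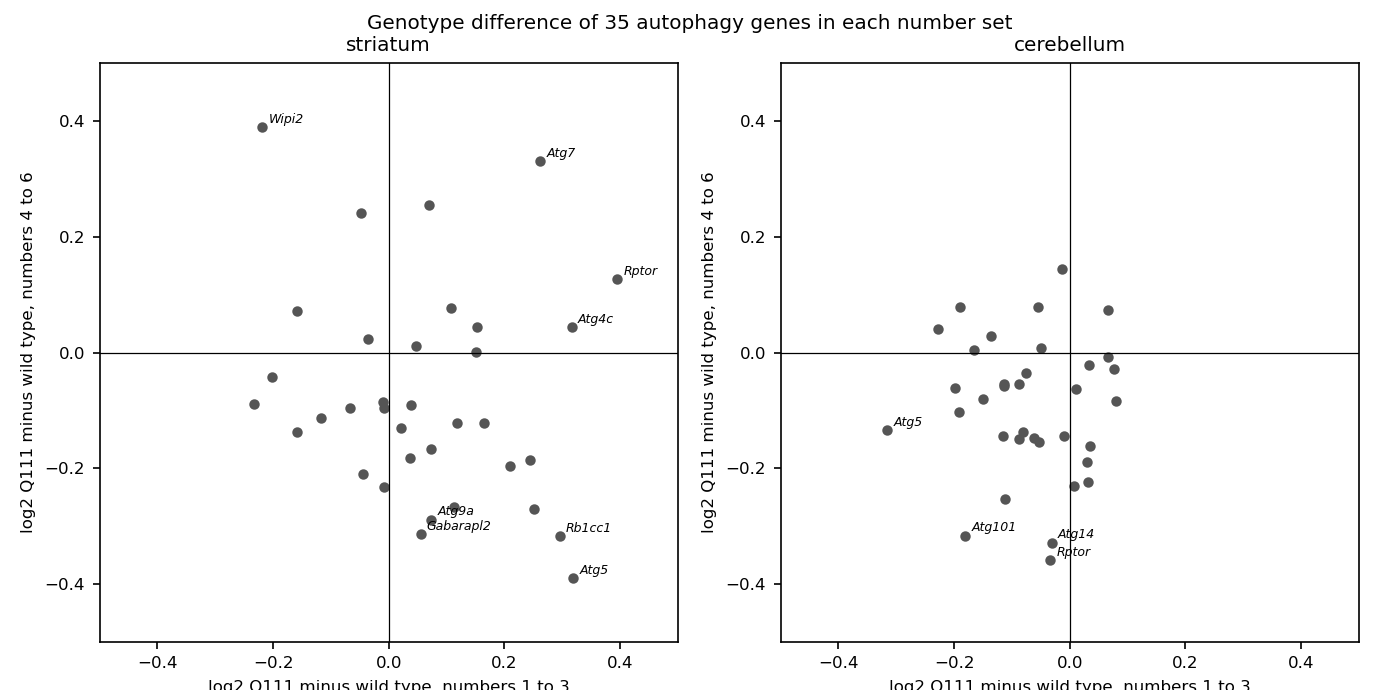
Q111 minus wild-type log2 difference of each of the 35 autophagy genes in replicate numbers 1 to 3 (horizontal axis) and 4 to 6 (vertical axis), 3 arrays per group in each, for striatum (left) and cerebellum (right). Points spread over all 4 quadrants in striatum, 17 of 35 with the same sign in both sets; names mark genes beyond 0.28 in a set.

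Some marker genes of other cells passed the genotype test in striatum, where no member did. Of 4 measured endothelial and mural markers 2 were lower in Q111, of 5 cerebral cortex markers 2 were higher, and of 7 microglial markers 1 was higher and 1 lower. The summed level of the endothelial and mural markers was 10.6 to 10.9 in wild-type striatum and 10.1 to 10.4 in Q111 striatum. The choroid plexus sum varied widely within groups, from 11.9 to 16.3 in wild-type and 12.3 to 15.9 in Q111 striatum. In cerebellum 0 markers of these 3 lists were called by limma, with 1, 0 and 1 at an unadjusted p under 0.05. Over all probe sets 2.87% were called in striatum and 0.458% in cerebellum, where 13.8% had such an unadjusted p. Whether these short lists differ from those shares was not tested. The part of these markers' cells in the members' values was not tested.

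Genes around the core pathway had no genotype calls either. The lists of other autophagy genes, lysosomal genes, and mTORC1, AMPK and TFEB regulators had 36 of 40, 44 of 53 and 33 of 38 genes measured. In limma 0 of each were called between genotypes in striatum, with 4, 4 and 5 at an unadjusted p under 0.05, and 0 in cerebellum, with 4, 3 and 3. Over all probe sets 2.87% were called and 19% had such an unadjusted p in striatum, and 0.458% and 13.8% in cerebellum, so these counts do not stand above the background. The largest striatal differences were -0.42 for Fyco1, an adaptor for autophagosome transport (adjusted p = 0.142), and -0.24 for the fusion SNARE Vamp8 (adjusted p = 0.37). Among lysosomal genes Lipa, the acid lipase, measured -0.33 (adjusted p = 0.279) and Ctsz, a cathepsin, -0.29 (adjusted p = 0.198). Among the regulators Tsc2, a brake on mTORC1, measured -0.26 (adjusted p = 0.164) and Akt1s1, another inhibitor, -0.25 (adjusted p = 0.428).

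In cerebellum the largest were 0.53 for the ATG8 protease Atg4a (adjusted p = 0.311) and 0.27 for the beclin-binding Bcl2 (adjusted p = 0.608). The lysosomal hydrolase Aga measured 0.43 (adjusted p = 0.231) and the cathepsin Ctsf -0.24 (adjusted p = 0.457). Depdc5, which restrains mTORC1 when amino acids are scarce, measured -0.44 (adjusted p = 0.182), and the stress-induced inhibitor Ddit4 -0.27 (adjusted p = 0.609).

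Between wild-type tissues the largest differences in these lists exceeded those of the members. The counts called are to be read against the 71.8% of all probe sets called in this comparison, 30.6% higher and 41.2% lower in striatum. Of the other autophagy genes 24 of 36 (66.7%) were called, 11 higher and 13 lower. Bcl2 was higher by 1.80, the receptor Calcoco1 by 1.21 and the reticulophagy receptor Retreg1 by 1.03, while Vamp8 was lower at -2.50, Tecpr1 at -1.47 and the protease Atg4d at -1.36.

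Of the lysosomal genes 29 of 44 (65.9%, against 71.8% of all probe sets) were called, 8 higher and 21 lower in striatum. Lower calls outnumber higher ones over all probe sets too, and whether this list differs from them was not tested. The sorting receptor Sort1 was higher by 2.03, acid alpha-glucosidase Gaa by 1.16 and the proton pump subunit Atp6v1d by 0.89. Ctsf was lower at -1.51, beta-mannosidase Manba at -1.48 and the pump subunit Atp6v1g1 at -0.93.

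Of the regulators 24 of 33 (72.7%, against 71.8%) were called, 11 higher and 13 lower. The transcription factor Foxo1 was higher in striatum by 3.01 and its relative Foxo3 lower at -1.41. The mTOR inhibitor Deptor was higher by 1.95 and the Rag GTPase Rragd by 1.72, while the stress sensor Sesn1 was lower at -1.17 and folliculin, Flcn, at -1.12. In Q111 22 of 36, 32 of 44 and 22 of 33 genes of the 3 lists were called (61.1%, 72.7% and 66.7%, against 71.4% of all probe sets), and each gene named between tissues here had the same sign there.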

How the data were processed

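Total RNA of 24 tissue samples was hybridised to Affymetrix MG430 2.0 arrays. Per the submitters' processing notes the values are GCRMA values, which the authors deposited as 1 table; no GCRMA version is given in the sources used here. The log base is not stated, and the deposited values, from -0.77 to 16.33, were read as log2. Probe sets were named through the platform annotation of 2016. Of 45101 probe sets 64 controls were left out, and 20738 of the others had a mean of at least 4 in striatum or cerebellum. Over probe sets, the lowest correlation of 2 arrays of a group was 0.983.

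One model across the 24 arrays fitted each group's mean (limma 3.58.1, R 4.3.3; 20 residual and 3.22 prior degrees of freedom). Adjusted p-values are limma's with Benjamini-Hochberg adjustment over all 20738 probe sets, with a threshold of 0.05. Exact permutation tests are two-sided. The number of arrays limits the precision.

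Members and gene lists were chosen with earlier results of these data known. All members could be named; values per array are given for the 3 largest genotype differences in each tissue, the 4 largest wild-type tissue differences each way and the ATG8 family, and from the other lists up to 3 calls each way, or the 2 largest differences. Alternatives covered filters, scaling, prior, weights, threshold, probe sets, number sets and single arrays.

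With the number set as a term, 0 members were called between genotypes, and 19 in wild type and 23 in Q111 between tissues.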

Additional observations from a re-analysis of the deposited data

Results flagged for a closer look

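In 140 sets of 6 arrays, 1 for each of 35 members in each group, Dixon's test at the 95% level found 7 with an array far from the other 5, where chance gives about 1 in 20. In wild-type striatum, replicate 3 was high for Becn1 at 10.63 (next 10.45) and low for Rptor at 7.04 (next 7.37), replicate 4 was low for Mtor at 9.07 (next 9.21), and replicate 6 was high for Atg14 at 7.26 (next 6.89). In Q111 striatum, replicate 4 was low for Atg13 at 7.39 (next 7.82) and replicate 6 low for Rptor at 7.27 (next 7.62). In wild-type cerebellum, replicate 6 was low for Pik3r4 at 6.90 (next 7.25). No member passed the test of a difference between tissues in its genotype effect.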

How the results depend on the processing

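No member was called between genotypes, or in the interaction, under any alternative that keeps 1 value per gene, including each array left out in turn. Counting a gene if any of its kept probe sets was called, an alternative added after seeing the data, gave 1 in striatum, Becn1. Its second probe set kept its call in 9 of 12 other settings. It was lost with the number set as a term (adjusted p = 0.0633) and in the fits on numbers 1 to 3 alone (0.331) or 4 to 6 alone (0.161), which hold fewer arrays. The count between tissues was 18 to 29 of 35 in wild type and 18 to 26 in Q111, and 21 to 25 and 23 to 26 with an array left out. Leaving aside the stricter threshold and the fits on 1 number set, 17 of the 25 wild-type calls were made in every setting that tested the gene; Wipi1, Wipi2, Atg4b, Atg4c, Atg12, Map1lc3b, Sqstm1 and Rptor were not. In Q111 22 of 24 were, without Atg2a and Map1lc3b.

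Gabarap, near 0 between wild-type tissues, turned negative with array weights (-0.0165), in numbers 1 to 3 alone (-0.0612) and with some single arrays left out (-0.0191 to 0.0304 over all of them), and in Q111 it was 0.0155 in numbers 1 to 3. The cause was not tested. No detection calls were used, so signal over background was judged by the filter on means alone.

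A fit with the replicate number as a block called 0 members between genotypes in either tissue, 21 between tissues in wild type and 24 in Q111. Same-numbered arrays of the 2 genotypes correlated at -0.41 to -0.09 in striatum, in their deviations from group means. Their median correlations with other numbers there were 0.04 to 0.24. In cerebellum the same-number range was -0.42 to 0.12. Between tissues it was -0.004 to 0.18 in wild type and -0.05 to 0.14 in Q111. Arrays correlated best with their own number for 3 of 6 numbers between wild-type tissues and 2 of 6 between Q111 tissues. Between genotypes this held for 0 of 6 in each tissue. The number is thus not without structure. It was not used to pair the samples in the main fit, and whether it pairs them is not settled by these values.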
